A study of Mus musculus with 4 samples.

Results

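The genes described here encode the nuclear subunits, assembly factors and near relatives of the mitochondrial respiratory chain and of the ATP synthase. They were taken as every gene whose array name begins with Nduf, Uqcr or Atp5, or with Cox and a digit. The rule uses names and no measured value, though it was set with earlier results of these data known. The rule found 93 genes with 124 probes, of 29353 named genes and 61307 probes on the array. By complex, 40 belonged to complex I, 7 to complex III, 27 to complex IV and 17 to the ATP synthase, and 2 (Cox4nb, now Emc8, and Atp5l2) were not subunits of any. Of the 93, 77 were subunits or their tissue isoforms.

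The arrays held bone marrow cells of C57BL6/J mice, 7 weeks of age per the labels, from 4 groups with 1 array each. LSK cells are lineage-negative, Sca-1-positive and c-kit-positive marrow cells, which contain the blood stem cells and early progenitors. They were sorted at day 10 from mice that had received 700 cGy of radiation and 30000 LSK cells of CD45.2 donors, and at day 0 from healthy mice without either. CD45-negative cells, sorted as marrow stroma, came from the same 2 conditions at day 10 and day 0. The recipients carried the CD45.1 form of the leukocyte antigen CD45, and 1 label field gives the stromal sort as CD45.1-negative. That gate would keep donor cells in, whereas a sort against all forms of CD45 would not; which was used cannot be told from the labels. The question named in the study's title is which expression signatures niche cells carry while blood stem cells proliferate, the state the labels give for day 10. Because each group has 1 array, no difference has a test or an error between mice, and 2-fold is used below as a threshold of size.

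The respiratory chain passes electrons from NADH through complex I, and from succinate through complex II, to ubiquinone, then through complex III and cytochrome c to oxygen at complex IV. Complexes I, III and IV pump protons across the inner mitochondrial membrane, and the ATP synthase lets them flow back to make ATP. All except complex II mix subunits coded in the nucleus with subunits coded in mitochondrial DNA; the array held no mitochondrially encoded gene under the names searched, so every value below is of a nuclear gene. Blood stem cells at rest are known for making much of their ATP by glycolysis, and their proliferation and differentiation for drawing more on mitochondria. Maturing red cells lose their mitochondria.

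On the 4 arrays, 47.6% to 56.6% of probes were well above background by the scanner's flag, and replicate spots of a probe had a median SD of 0.087 to 0.107 log2 units, which is the error within an array only. The labels were set against marker genes, as levels (log2 relative to the array's 75th percentile, the scale of every level below). Kit, the receptor c-kit, lay at 4.65 (day 10) and 5.04 (day 0) in LSK cells, and at 1.94 and 1.52 in CD45-negative cells. Of 10 LSK markers, Kit among them, 3 were measured in both populations at day 0, and 3 of 3 were higher in LSK cells. At day 10, 6 of 8 measured were higher in LSK cells and 2 lower. Between days in LSK cells, 8 of 9 were lower at day 10 (median -0.39), 2 of them at least 2-fold. Ptprc, the gene of CD45, was above background on all 4 arrays and lay at 5.58 (day 10) and 3.10 (day 0) in the cells sorted as CD45-negative. In LSK cells it lay at 4.25 (day 10) and 4.18 (day 0). LSK minus CD45-negative was thus -1.33 at day 10 and 1.08 at day 0, so the cells sorted as CD45-negative held more Ptprc signal than LSK cells at day 10. The CD45-negative cells also held red cell transcripts: all 19 erythroid markers on the array were above background there on both days. In LSK cells 14 were at day 10 and 15 at day 0. The summed level was 9.14 at day 10 and 11.84 at day 0 in CD45-negative cells, against 5.44 and 6.12 in LSK cells. Of 16 stromal markers, 10 were above background in CD45-negative cells at day 10 and 14 at day 0, with summed levels of 3.90 and 7.16. In such sorted bulk samples, fewer cells of a type and less RNA per cell cannot be told apart. Markers of blood lineages differed between days in CD45-negative cells too. At least 2-fold higher at day 10 were 10 of 11 measured T and NK cell markers (median 3.23), 6 of 6 of plasma cells (3.17), 6 of 7 of B cells (1.84) and 8 of 12 of neutrophils (1.63), and 5 of 6 of megakaryocytes were at least 2-fold lower (-4.10). Their summed levels in CD45-negative cells at day 10 and day 0 were 7.76 and 3.44 (T and NK cells), 8.19 and 4.50 (plasma cells), 9.43 and 8.46 (B cells), 9.82 and 10.21 (neutrophils, whose sum thus differed the other way) and 0.82 and 4.96 (megakaryocytes). LSK cells held such transcripts too, with sums of 9.88 and 9.94 (neutrophils), 8.34 and 8.16 (B cells) and 6.48 and 6.77 (T and NK cells). For plasma cells the LSK sums were 4.73 and 7.78, and for megakaryocytes 3.88 and 4.97. At least 2-fold lower at day 10 in LSK cells were 2 of 7 plasma, 2 of 9 megakaryocyte and 4 of 17 T and NK markers. At least 2-fold higher were 3 of 12 neutrophil, 2 of 17 T and NK and 1 of 10 B cell markers. What these other cells contributed to the results below was not tested.

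Of the 93 genes, 89 were above background on all 4 arrays, 3 on none (Cox4i2, Cox7b2 and Cox8c) and Ndufa4l2 on 1. Cox6a1 was above background on all 4 but saturated on both CD45-negative arrays, so it has no measured difference there. The map of levels by array shows where the differences lie: the first pair of columns is close to even for most genes, and the deepest colours stand in the CD45-negative columns of a few complex IV genes and in LSK cells at day 0 for Cox6a2.

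**Figure D1:**
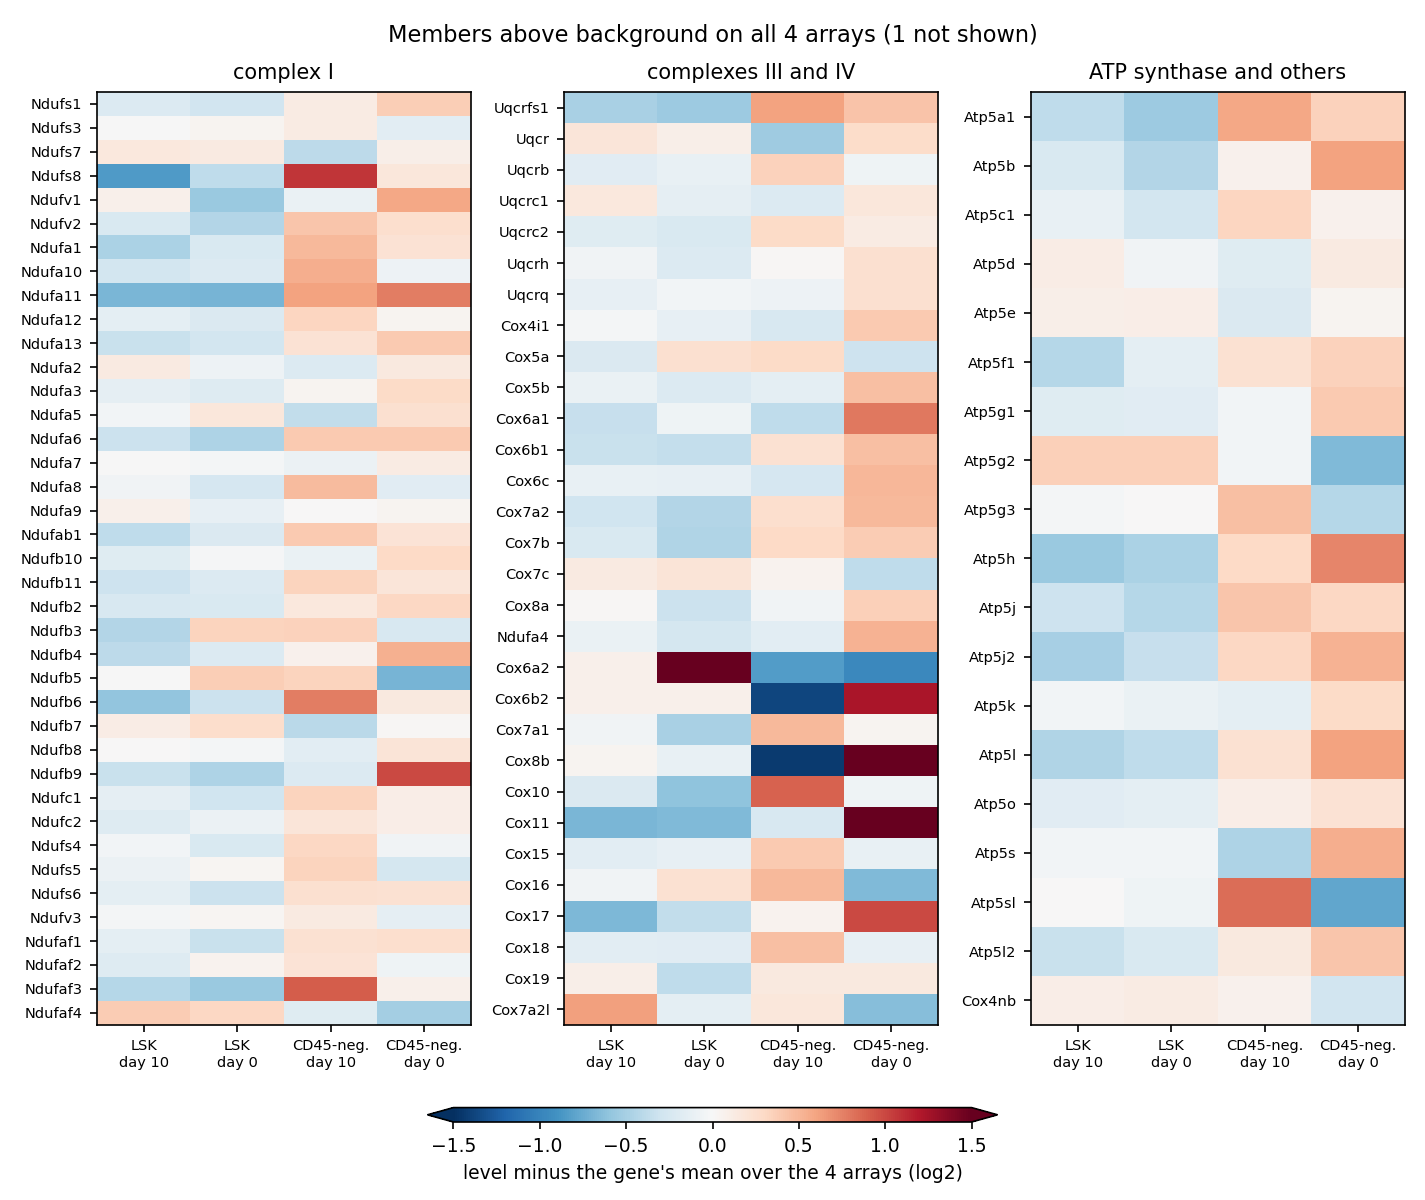
Level of the genes above background on all 4 arrays, 1 of them not shown, minus its own mean over the 4 arrays (colour, log2), with 1 column an array. Rows run by complex and role. Cox8b, Cox6b2 and Cox11 are far lower in CD45-negative cells at day 10 than at day 0, and Cox6a2 is highest in LSK cells at day 0.

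In LSK cells the nuclear subunits of the respiratory chain stood at nearly the same level at day 10 as at day 0. Of the 89 genes measured on both arrays, 0 were at least 2-fold higher at day 10 and 1 was at least 2-fold lower, Cox6a2. Over all 16089 genes measured on both arrays the shares were 1.47% higher and 2.72% lower. Above 0 lay 48 of the 89 and below 0 lay 41, where 50.2% and 49.8% of all genes did. The median difference was 0.01 log2 units over the 89 genes and 0.00 over all genes. A difference of at most 0.5 log2 units was seen for 95.5% of the 89, against 81.7% of all genes measured. Brighter genes in general differed less: among the genes whose mean level reached the lower quartile of the members' mean levels, 0.664% were 2-fold apart in either direction, against 4.2% of all genes. Of the 70 members that bright, 1 was (1.43%).

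Medians by complex in LSK cells were -0.03 for 36 complex I subunits, 0.06 for 7 of complex III, 0.10 for the 11 general subunits of complex IV and -0.01 for 15 of the ATP synthase. The largest difference in complex I belonged to Ndufb3, an accessory subunit of the membrane arm, with levels of 4.03 in LSK cells at day 10 and 4.80 at day 0. It was lower at day 10 by 1.7-fold. Ndufv1, the core subunit that binds NADH and the flavin, differed the other way, with 5.0 in LSK cells at day 10 and 4.37 at day 0, a difference of 0.63. In complex III the largest was Uqcrc1, a core protein of the complex, with 5.71 in LSK cells at day 10 and 5.42 at day 0 and a difference of 0.29. In the ATP synthase it was Atp5f1 (now Atp5pb), the b subunit of the peripheral stalk, with 5.36 in LSK cells at day 10 and 5.63 at day 0 and a difference of -0.27. None of these reached 2-fold.

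Cox6a2, the heart and skeletal muscle isoform of subunit VIa of complex IV, was the exception in LSK cells. Its levels were 2.59 (day 10) and 4.26 (day 0) in LSK cells, and 1.67 (day 10) and 1.55 (day 0) in CD45-negative cells. It was 3.17-fold lower in LSK cells at day 10 than at day 0, while the CD45-negative arrays differed by 0.13. The ubiquitous isoform Cox6a1 had 7.89 in LSK cells at day 10 and 8.17 at day 0, a difference of -0.28. Cox6a2 is known to be used by plasmacytoid dendritic cells besides muscle. Of 12 markers of those cells, a list chosen after the values were seen, 11 were measured on both LSK arrays, 11 of them were lower at day 10 and 6 at least 2-fold, with a median difference of -1.31. Their summed level in LSK cells was 6.75 at day 10 and 7.45 at day 0. Siglech, a surface receptor that defines these cells in mice, differed by -1.90, Pacsin1 by -2.03 and Klk1 by -3.27. In CD45-negative cells 8 markers were measured on both days and all 8 were higher at day 10, unlike Cox6a2, which was nearly level there. The 10 skeletal muscle markers measured in LSK cells all differed upward, by a median of 0.23. The part of other cell types in the Cox6a2 difference was not tested.

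Cox7a2l, which joins complexes III and IV into supercomplexes and of which C57BL/6 mice are known to carry a shortened form, had the largest upward difference in LSK cells. It was chosen here after its values were seen. Its levels were 5.28 (day 10) and 4.53 (day 0) in LSK cells, and 4.84 (day 10) and 4.03 (day 0) in CD45-negative cells. It was 1.69-fold higher at day 10 in LSK cells and 1.75-fold higher in CD45-negative cells, both under 2-fold; its 1 probe also lists an accession that RefSeq did not match. Ndufa4l2, a relative of the complex IV subunit Ndufa4 that hypoxia induces, was above background in LSK cells at day 0 only. Its measured levels were -6.38 in LSK cells at day 10 and -3.83 at day 0, and -5.47 in CD45-negative cells at day 10 and -5.39 at day 0. Against the lowest signal called above background on the LSK day 10 array, it was at least 1.20-fold lower at day 10. Ndufa4 itself had 5.20 in LSK cells at day 10 and 5.02 at day 0.

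In CD45-negative cells the same genes differed more, but less often by 2-fold than genes overall. Of 88 measured on both arrays, 3 were at least 2-fold higher at day 10 (Atp5sl, Cox16 and Ndufb5) and 5 at least 2-fold lower (Cox8b, Cox6b2, Cox11, Ndufb9 and Atp5s). Of all 14166 genes measured on both arrays, 24.1% were at least 2-fold higher and 17.2% lower. Above 0 lay 43 of the 88 and below 0 lay 45, where 57.6% and 42.4% of all genes did. The median difference was -0.02 over the 88 genes and 0.22 over all genes. Differences of at most 0.5 log2 units made up 63.6% of the 88 and 33.1% of all genes, and 2-fold differences in either direction made up 9.09% of the 88 and 41.3% of all genes. Among genes at least as bright as defined above, they made up 4.35% of 69 members and 31.9% of all. Of the 8, 2 are general subunits of complex I (Ndufb9 and Ndufb5), 2 are tissue isoforms of complex IV (Cox8b and Cox6b2) and 4 are assembly factors or relatives (Cox11, Cox16, Atp5s and Atp5sl).

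These counts depend on the scaling and on the background correction. External RNA added to each sample (spike-in) gave a mean log2 signal of 8.85 on the CD45-negative array of day 10 and 10.7 on that of day 0, while the 75th percentile differed the other way, at 8.30 and 6.86. Scaling by the spike-in adds 3.25 log2 units to every CD45-negative difference, so that 86 of the 88 genes are then at least 2-fold higher at day 10 and 0 lower. The labels state 1 amount of input RNA for all samples, but whether equal amounts were labelled could not be checked, so what the spike-in scaling measures is not settled. Background correction of the raw signals by normexp gives a median of 0.24 in place of -0.02, with 7 genes higher and 3 lower.

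**Figure D2:**
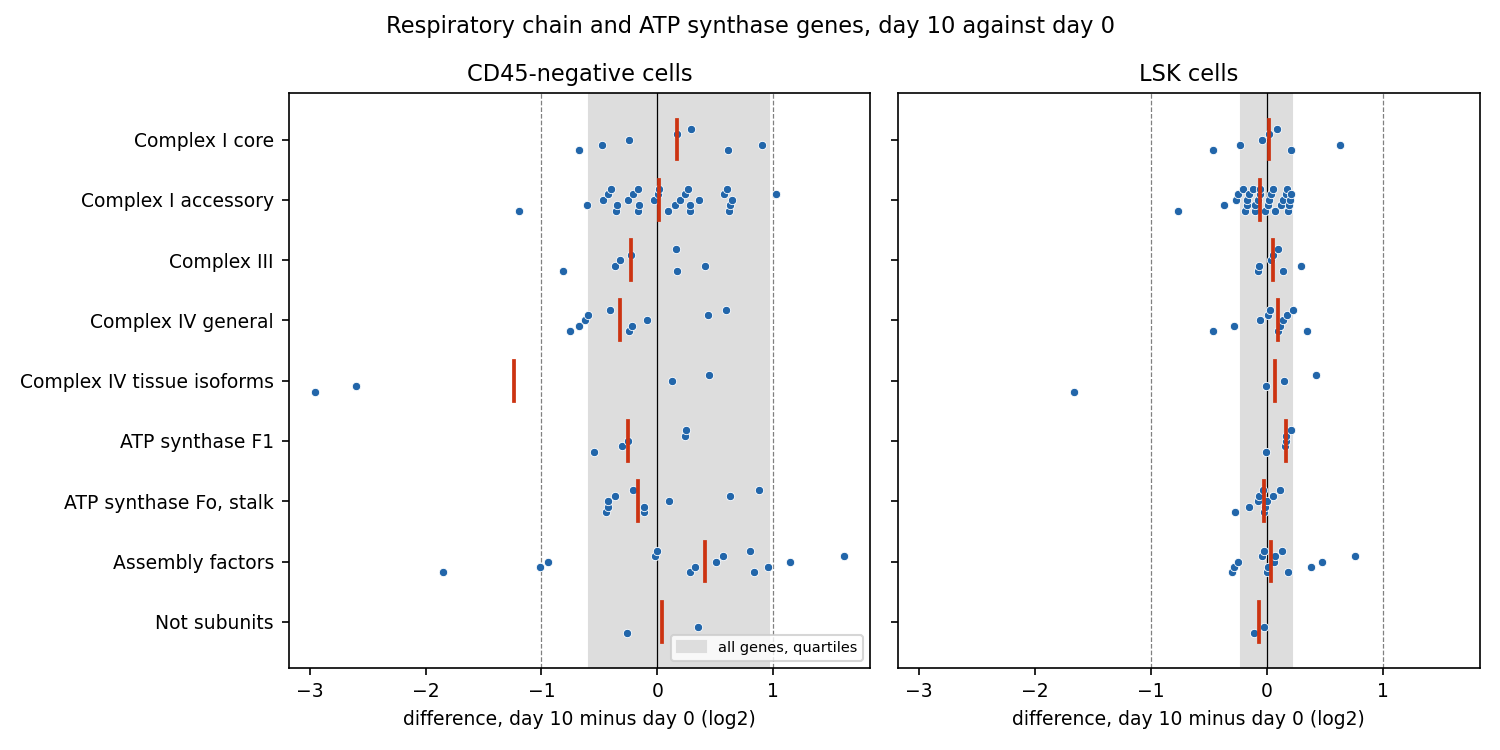
Day 10 minus day 0 (x axis, log2) for every measured gene, 1 point a gene, in CD45-negative cells (left) and LSK cells (right), grouped by complex and role. Red bars are group medians, the grey band spans the quartiles of all genes and dashed lines mark 2-fold. Most points of the CD45-negative panel lie within the grey band, and 2 tissue isoforms of complex IV lie beyond -2.

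Complex I had a median difference of 0.05 in CD45-negative cells, with 20 of 36 subunits above 0 and 16 below. Its median lay between -0.32 and 0.38 under the alternatives other than the spike-in scaling, so its sign depends on the processing. The core subunits, which carry the flavin and the iron-sulfur clusters, split by direction. Ndufs8, which holds iron-sulfur clusters next to the quinone site, had 2.69 (day 10) and 1.78 (day 0) in CD45-negative cells, and 0.76 and 1.23 in LSK cells, and it was 1.87-fold higher at day 10 in CD45-negative cells. Ndufs3 had 4.79 (day 10) and 4.50 (day 0) in CD45-negative cells, and 4.66 and 4.70 in LSK cells. Both were higher at day 10 in CD45-negative cells, and Ndufs8 was lower at day 10 in LSK cells, by 0.47 log2 units.

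Ndufv1, which takes the electrons from NADH, had 4.83 (day 10) and 5.50 (day 0) in CD45-negative cells, and 5.0 and 4.37 in LSK cells, a CD45-negative difference of -0.68. Its partner Ndufv2 had 2.45 (day 10) and 2.28 (day 0) in CD45-negative cells, and 1.81 and 1.60 in LSK cells. Ndufs1, the largest iron-sulfur subunit, had 4.13 (day 10) and 4.37 (day 0) in CD45-negative cells, and 3.80 and 3.71 in LSK cells. Ndufs7, the subunit with the last iron-sulfur cluster before ubiquinone, had 4.66 (day 10) and 5.14 (day 0) in CD45-negative cells, and 5.21 and 5.19 in LSK cells. Thus 3 of the 6 core subunits given here were higher and 3 lower at day 10 in CD45-negative cells, with differences from -0.68 to 0.91, all under 2-fold.

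Among the 29 accessory subunits of complex I, 16 were above 0 and 13 below in CD45-negative cells. Ndufb9, an accessory subunit of the membrane arm, had 5.50 (day 10) and 6.69 (day 0) in CD45-negative cells, and 5.36 and 5.24 in LSK cells: the CD45-negative array of day 0 stood above the other 3. It was 2.29-fold lower at day 10, and under 2-fold with normexp (-0.86) and cyclic loess (-0.96). Ndufb5, of the same arm, was lowest on that array, with 1.98 (day 10) and 0.96 (day 0) in CD45-negative cells, and 1.65 and 2.01 in LSK cells, a difference of 1.02 that dropped below 2-fold with 4 of the alternative scalings or corrections. Ndufb3 had 4.81 in CD45-negative cells at day 10 and 4.23 at day 0, a difference of 0.58, opposite in sign to its difference in LSK cells. The other accessory subunits lay between -0.61 (Ndufa5) and 0.64 (Ndufa8). Of the 4 assembly factors of complex I found by the rule, Ndufaf3 differed most, by 0.83, and Ndufaf1 least, by -0.02.

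The 7 nuclear genes of complex III found by the rule had a median of -0.23 in CD45-negative cells, 3 above 0 and 4 below. The sign of that median depends on the processing, with values from -0.60 to 0.31 under the alternatives other than the spike-in scaling. Uqcrfs1, the Rieske iron-sulfur protein that takes electrons from ubiquinol, had 4.58 (day 10) and 4.41 (day 0) in CD45-negative cells, and 3.49 and 3.43 in LSK cells. Its days were close in both populations, and both CD45-negative arrays stood above both LSK arrays. Uqcr (now Uqcr11), a small subunit, had the largest difference, with 5.66 (day 10) and 6.48 (day 0) in CD45-negative cells, and 6.38 and 6.29 in LSK cells, or 1.76-fold lower at day 10 in CD45-negative cells. Uqcrb, which lies near a quinone site, had 4.03 in CD45-negative cells at day 10 and 3.62 at day 0, a difference of 0.41. Uqcrc1 had 5.35 in CD45-negative cells at day 10 and 5.71 at day 0, a difference of -0.37. No gene of the complex reached 2-fold between days.

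General subunits of complex IV were lower at day 10 in CD45-negative cells in 8 of 10 cases, with a median of -0.33 against 0.22 for all genes, of which 42.4% lay below 0, as above. Cox4i1, the ubiquitous isoform of the largest nuclear subunit, had 7.16 (day 10) and 7.79 (day 0) in CD45-negative cells, and 7.38 and 7.28 in LSK cells. Ndufa4 had 5.14 in CD45-negative cells at day 10 and 5.81 at day 0, a difference of -0.67. The other 6 that were lower at day 10 lay between -0.75 (Cox6c) and -0.09 (Cox7b). Cox5a (0.59) and Cox7c (0.43) were higher. In LSK cells 8 of 11 were above 0, with a median of 0.10. None of these 11, nor of the 10 measured in CD45-negative cells, was 2-fold apart between days; the one left out there is Cox6a1, which was saturated. Under normexp the CD45-negative median was 0.10, so its sign depends on the background correction. The cause was not tested.

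Tissue isoforms of complex IV gave the largest differences of all measured members between days, in both populations. Complex IV exchanges several nuclear subunits between tissues: Cox8b, Cox7a1 and Cox6a2 are the heart and skeletal muscle forms, Cox6b2, Cox7b2 and Cox8c the testis forms and Cox4i2 a form of lung, each with a general counterpart. Cox8b had -2.94 (day 10) and 0.02 (day 0) in CD45-negative cells, and -1.46 and -1.62 in LSK cells. It was 7.75-fold lower in CD45-negative cells at day 10 than at day 0, while both LSK arrays lay between these 2 values. Its general counterpart Cox8a had 7.02 (day 10) and 7.42 (day 0) in CD45-negative cells, and 7.08 and 6.74 in LSK cells, a CD45-negative difference of -0.41.

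Cox6b2, like Cox8b, was lowest in CD45-negative cells at day 10 and highest in CD45-negative cells at day 0, with 1.31 (day 10) and 3.90 (day 0) in CD45-negative cells, and 2.75 and 2.76 in LSK cells. It was 6.05-fold lower at day 10 in CD45-negative cells and differed by -0.01 in LSK cells. For the general counterpart Cox6b1 the levels were 3.21 (day 10) and 3.43 (day 0) in CD45-negative cells, and 2.65 and 2.62 in LSK cells, a CD45-negative difference of -0.22. Cox7a1 had 1.14 (day 10) and 0.69 (day 0) in CD45-negative cells, and 0.59 and 0.16 in LSK cells, higher at day 10 in both populations, by 0.44 and 0.43. Its counterpart Cox7a2 had 6.47 (day 10) and 6.72 (day 0) in CD45-negative cells, and 5.92 and 5.79 in LSK cells, a CD45-negative difference of -0.24. The general form Cox7b had 5.99 (day 10) and 6.07 (day 0) in CD45-negative cells, and 5.46 and 5.24 in LSK cells, and its testis form Cox7b2 was below background on all 4 arrays, as were Cox8c and Cox4i2. Cox6a1 stood at 7.85 in CD45-negative cells at day 10 and 9.02 at day 0, both saturated, so these 2 values give no fold between days. Of the 4 tissue isoforms measured, 2 were therefore far apart between days in CD45-negative cells, 1 in LSK cells and 1 in neither.

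**Figure D3:**
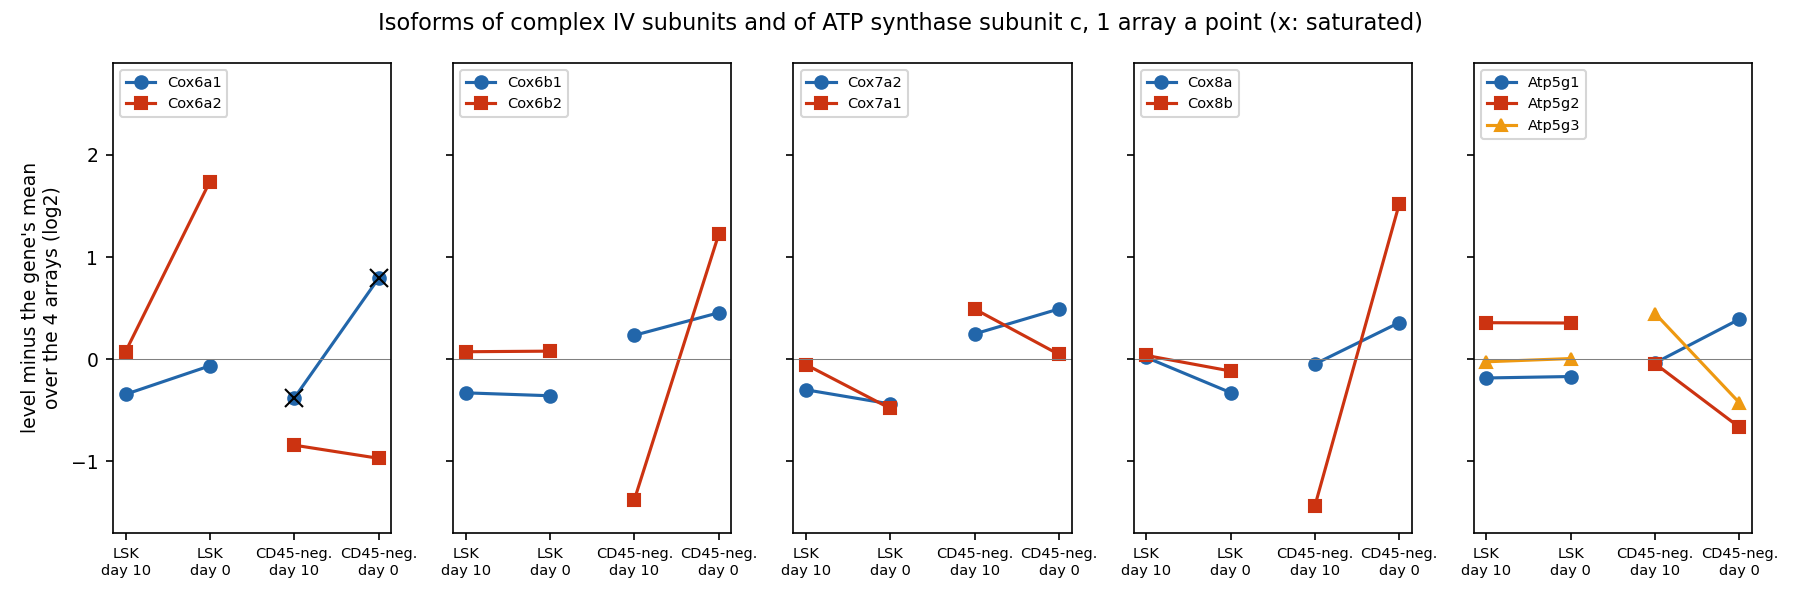
Level of paired general (blue) and tissue (red) isoforms of complex IV subunits, and of the 3 genes of ATP synthase subunit c, each minus its own mean over the 4 arrays (y axis, log2), with 1 point an array and a line joining the days of a population. Cox6b2 and Cox8b are lower at day 10 within CD45-negative cells, Cox6a2 within LSK cells, and Atp5g1 slopes against Atp5g2 and Atp5g3; crosses mark saturated values of Cox6a1.

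Most skeletal muscle markers had the same pattern over the arrays as Cox8b and Cox6b2. Cox7a1 and Cox6a2, also muscle forms, were not lower at day 10 in CD45-negative cells, as given above. Of 13 on the array, 10 were measured on both CD45-negative arrays, 9 of these were at least 2-fold lower at day 10 and 1 (Atp2a1) was higher, with a median of -2.41. Myh4, the fast myosin heavy chain of glycolytic muscle fibres, had 4.05 and 6.55 in CD45-negative cells at day 10 and day 0, and 5.27 and 5.09 in LSK cells. Tnni2, troponin I of fast muscle, had 2.62 and 4.95, and 3.95 and 3.69. The list's summed level was 5.14 and 7.61 in CD45-negative cells, with 10 and 12 of 13 markers above background, and 6.35 and 6.15 in LSK cells, with 11 of 13 on both days. Ckm, the creatine kinase that defines muscle, was below background on all 4 arrays, and Mb, the muscle oxygen carrier, was above it in CD45-negative cells at day 0 and LSK cells at day 10 only. Erythroid markers moved the same way in CD45-negative cells, with 15 of 15 measured at least 2-fold lower at day 10 and a median of -4.31. So did 9 of 10 measured stromal markers (median -3.00, 1 higher) and 5 of 6 megakaryocyte markers (-4.10). Markers of T and NK, plasma and B cells mostly differed the other way, as given above. The part of these cell types in the Cox8b and Cox6b2 differences was not tested.

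**Figure D4:**
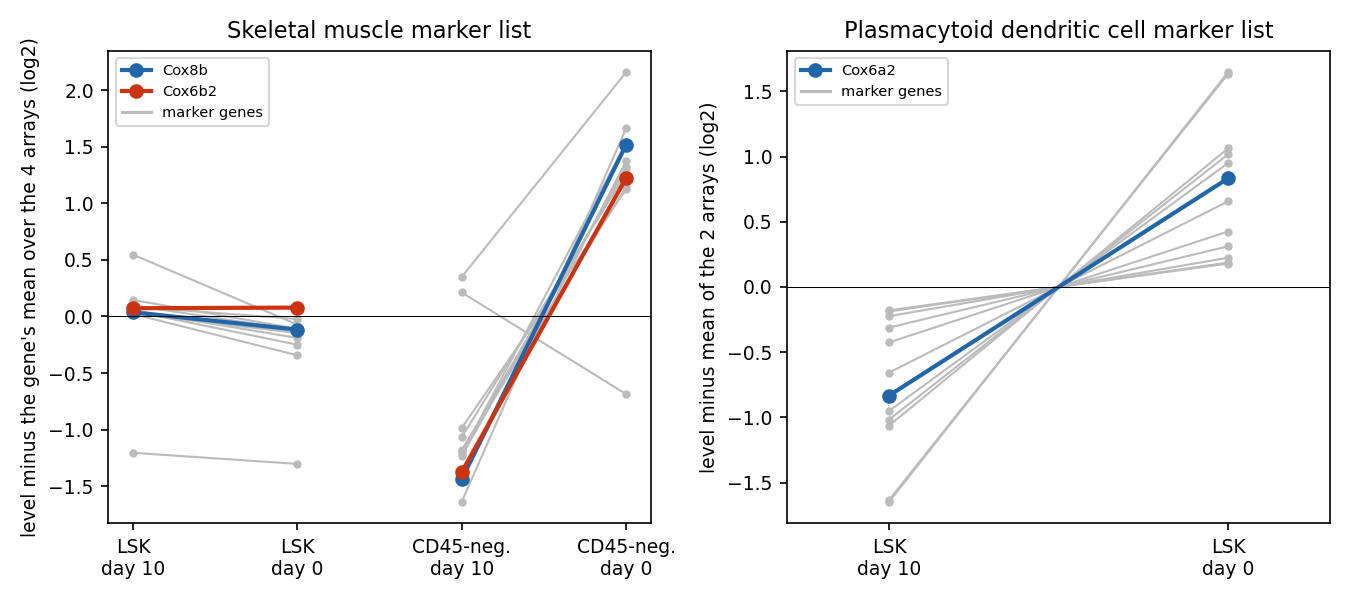
Left, Cox8b and Cox6b2 beside the skeletal muscle markers measured on both CD45-negative arrays (grey), each minus its mean over the 4 arrays (y axis, log2). Right, Cox6a2 beside the plasmacytoid dendritic cell markers measured on both LSK arrays, each minus its mean over those 2 arrays. Apart from Atp2a1 and Mylpf, the marker lines of the left panel run close to the coloured ones.

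The promoters of these pairs are given because the tissue and the general isoform differ in how they stood over the same 4 arrays. Each line holds the 250 bases before a transcript start in RefSeq, build GRCm38.p6, read along the gene's strand. Cox8b lies on the minus strand at chr7:140900447-140900696, Cox8a on the minus strand at chr19:7217617-7217866, Cox6b2 on the minus strand at chr7:4753095-4753344 and Cox6b1 on the minus strand at chr7:30626115-30626364. Capitals mark the letters CAGCTG (an E-box of the kind bound by the muscle factor MYOD1) in Cox8b and the complement of CCGGAAG (a core bound by GABPA, an ETS factor of many mitochondrial genes) in Cox6b1.
Cox8b: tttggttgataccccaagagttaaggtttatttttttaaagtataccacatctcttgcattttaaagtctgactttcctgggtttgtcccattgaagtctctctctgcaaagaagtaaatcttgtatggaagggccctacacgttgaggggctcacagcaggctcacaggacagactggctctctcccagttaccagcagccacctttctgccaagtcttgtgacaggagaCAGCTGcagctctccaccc
Cox8a: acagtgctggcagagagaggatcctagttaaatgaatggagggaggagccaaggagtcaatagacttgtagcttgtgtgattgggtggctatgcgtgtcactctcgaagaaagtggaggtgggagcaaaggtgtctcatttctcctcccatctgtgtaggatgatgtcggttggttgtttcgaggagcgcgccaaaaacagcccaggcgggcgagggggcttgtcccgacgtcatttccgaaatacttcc
Cox6b2: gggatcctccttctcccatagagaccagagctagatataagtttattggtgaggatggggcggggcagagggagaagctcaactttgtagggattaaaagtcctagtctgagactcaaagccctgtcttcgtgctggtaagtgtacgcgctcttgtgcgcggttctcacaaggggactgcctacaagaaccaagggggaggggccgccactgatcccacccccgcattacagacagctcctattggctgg
Cox6b1: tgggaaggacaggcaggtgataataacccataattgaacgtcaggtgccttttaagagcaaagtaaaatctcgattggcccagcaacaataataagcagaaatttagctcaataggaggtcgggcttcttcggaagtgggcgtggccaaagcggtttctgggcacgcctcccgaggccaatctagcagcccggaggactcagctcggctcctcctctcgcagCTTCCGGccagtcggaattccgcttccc
The letters CAGCTG occur on either strand in 13.0% of the 32851 promoter stretches of this length in RefSeq and CCGGAAG in 6.91%, so that 1 match is a description of the stretch and not a site.

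Assembly factors of complex IV differed in both directions in CD45-negative cells, with a median of 0.50 over 7. Cox11, which delivers copper to the catalytic core, had 1.79 (day 10) and 3.64 (day 0) in CD45-negative cells, and 1.34 and 1.37 in LSK cells, so that the CD45-negative array of day 0 stood apart from 3 similar values. It was 3.6-fold lower at day 10. Cox17, the copper chaperone ahead of it, had 5.15 (day 10) and 6.09 (day 0) in CD45-negative cells, and 4.42 and 4.73 in LSK cells and was 1.92-fold lower at day 10. Cox16, a factor for the copper site of a core subunit, was 2.21-fold higher at day 10, with 3.92 (day 10) and 2.78 (day 0) in CD45-negative cells, and 3.38 and 3.66 in LSK cells. Cox10 and Cox15, which make haem A, differed by 0.95 and 0.50, Cox18 by 0.57 and Cox19 by 0.00. In LSK cells these 7 lay between -0.30 (Cox17) and 0.47 (Cox19).

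Subunits of the ATP synthase had a median of -0.21 in CD45-negative cells, 5 above 0 and 10 below, and none was 2-fold apart between days in either population. Under the alternatives other than the spike-in scaling, the CD45-negative median lay between -0.58 and 0.22, so its sign depends on the processing. The F1 head, which makes ATP, is built of the alpha to epsilon subunits. Atp5a1 (alpha) had 6.73 (day 10) and 6.49 (day 0) in CD45-negative cells, and 5.76 and 5.59 in LSK cells. Atp5b (beta, the catalytic subunit) had 7.45 (day 10) and 8.0 (day 0) in CD45-negative cells, and 7.17 and 6.96 in LSK cells; its 3 probes gave CD45-negative differences from -0.54 to 0.30, so its direction depends on the probe. Atp5c1 (gamma, the rotor shaft) had 6.59 (day 10) and 6.34 (day 0) in CD45-negative cells, and 6.16 and 6.0 in LSK cells. The head thus shows no single direction: Atp5a1 and Atp5c1 were slightly higher at day 10 in CD45-negative cells, and in LSK cells the 2 probes of Atp5a1 had opposite signs (0.17 and -0.06).

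Atp5d (delta) had 4.63 (day 10) and 4.94 (day 0) in CD45-negative cells, and 4.92 and 4.76 in LSK cells. For Atp5e (epsilon) the levels were 6.56 (day 10) and 6.81 (day 0) in CD45-negative cells, and 6.86 and 6.87 in LSK cells. Both were lower at day 10 in CD45-negative cells, with differences of -0.31 and -0.25. Of the 10 genes of the membrane rotor and the stalk, 7 were lower at day 10 in CD45-negative cells, down to -0.44 (Atp5h, the d subunit), and the b subunit Atp5f1 had 6.01 in CD45-negative cells at day 10 and 6.12 at day 0.

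The 3 genes of subunit c went separate ways. Atp5g1, Atp5g2 and Atp5g3 code for the same mature protein, which forms the rotating ring in the membrane, behind different import signals. Atp5g3 had 6.50 (day 10) and 5.63 (day 0) in CD45-negative cells, and 6.03 and 6.06 in LSK cells, 1.83-fold higher at day 10 in CD45-negative cells. Atp5g2 had 6.78 (day 10) and 6.16 (day 0) in CD45-negative cells, and 7.18 and 7.18 in LSK cells, 1.54-fold higher. Atp5g1 had 3.95 (day 10) and 4.38 (day 0) in CD45-negative cells, and 3.81 and 3.82 in LSK cells, 1.35-fold lower. In LSK cells the 3 differed between days by -0.01, 0.00 and -0.03, in the order Atp5g1, Atp5g2, Atp5g3. All 3 CD45-negative differences are under 2-fold with these probes, while a second, dimmer probe of Atp5g2 gave 1.04, past 2-fold, and the probes of Atp5g1 and Atp5g2 also list accessions that RefSeq did not match, so their signals cannot be told apart from those of related transcripts. Atp5g1 and Atp5g2 were chosen after their values were seen.

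Their promoters are shown since 1 mature protein comes from 3 genes with unlike values. For Atp5g1 and Atp5g3 the transcript start used (96075631 and 73911326) lies inside the gene's RefSeq start (96075694 and 73912464). Their stretches are thus not those of the outermost start, and which start these cells used was not tested. Each line again holds the 250 bases before a RefSeq transcript start (GRCm38.p6), all on the minus strand: Atp5g1 at chr11:96075632-96075881, Atp5g2 at chr15:102671048-102671297 and Atp5g3 at chr2:73911327-73911576. Capitals mark AGATAA, the letters bound by GATA1, in Atp5g1 and its complement in Atp5g3, and GCGCATG, part of the letters bound by NRF1, in Atp5g2, where it occurs on both strands with an overlap.
Atp5g1: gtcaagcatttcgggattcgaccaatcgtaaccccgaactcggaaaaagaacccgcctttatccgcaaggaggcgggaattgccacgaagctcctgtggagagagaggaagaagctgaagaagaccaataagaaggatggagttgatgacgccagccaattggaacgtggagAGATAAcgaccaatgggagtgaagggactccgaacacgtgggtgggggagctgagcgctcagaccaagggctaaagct
Atp5g2: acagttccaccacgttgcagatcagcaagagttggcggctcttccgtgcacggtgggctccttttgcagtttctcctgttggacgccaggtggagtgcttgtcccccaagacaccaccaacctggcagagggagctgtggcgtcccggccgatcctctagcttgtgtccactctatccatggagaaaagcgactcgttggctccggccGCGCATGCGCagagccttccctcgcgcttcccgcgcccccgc
Atp5g3: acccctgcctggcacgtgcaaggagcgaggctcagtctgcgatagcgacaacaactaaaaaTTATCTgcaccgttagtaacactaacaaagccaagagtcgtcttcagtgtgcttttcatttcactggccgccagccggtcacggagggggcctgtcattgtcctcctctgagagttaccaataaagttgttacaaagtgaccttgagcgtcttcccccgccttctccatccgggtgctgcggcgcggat
AGATAA occurs in 9.99% of all 32851 stretches and GCGCATG in 3.24%, on either strand. Over the members, 75 of 93 genes had a promoter in the table, with 82 stretches. Of these, 12.2% held the NRF1 letters and 18.3% the GABPA letters (6.91% of all), factors known as regulators of nuclear respiratory genes. The GATA1 letters stood in 8.54% and the MYOD1 letters in 7.32% (13.0% of all). The 4 motifs were searched on both strands; no printed stretch holds more than 1 of them.

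Atp5s and Atp5sl, named after the ATP synthase but now called Dmac2l and Dmac2, are not subunits of the enzyme. Atp5sl had 0.56 (day 10) and -1.05 (day 0) in CD45-negative cells, and -0.27 and -0.35 in LSK cells, 3.05-fold higher at day 10 in CD45-negative cells. Its second probe gave 1.21 there, but the 2 probes gave 0.07 and -1.05 in LSK cells, so no direction holds for LSK cells. Atp5s had -0.05 (day 10) and 0.96 (day 0) in CD45-negative cells, and 0.37 and 0.37 in LSK cells, 2.02-fold lower at day 10 in CD45-negative cells, and -0.58 with normexp. Outside the complexes, Atp5l2 and Cox4nb differed by -0.26 and 0.35.

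LSK cells had lower levels than CD45-negative cells for most of these genes on both days. At day 0, 69 of 88 measured genes were below 0 in LSK minus CD45-negative and 19 above, where 46.4% and 53.6% of all genes were, with a median of -0.40 against 0.10 for all genes. At least 2-fold, 3 were higher in LSK cells (Cox6a2, Ndufb5 and Atp5g2) and 9 lower, where 22.1% and 17.8% of 14308 genes were. The second, dimmer probe of Atp5g2 gave 0.84, under 2-fold. In either direction the share at 2-fold is 13.6% of the 88 and 40.0% of all genes. Among the brighter genes it is 13.0% of 69 members and 33.6% of all. At day 10, 61 of 88 were below 0 and 27 above, where 50.8% and 49.2% of all genes were, with a median of -0.39 against -0.02. Then 2 were at least 2-fold higher (Cox8b and Cox6b2) and 7 lower, where 11.3% and 12.9% of 15470 genes were, in either direction 10.2% of the 88 and 24.2% of all genes, and among the brighter genes 5.8% of 69 members and 14.6% of all. The days rest on different arrays: 51 of the 88 (58.0%) were lower in LSK cells on both days, against 30.0% of 13805 genes. Higher on both were 9, and the share of all genes in that direction was not computed. All genes' own median turns negative under the median shift (-0.09 at day 0), and with the spike-in scaling LSK cells were higher at day 0 (median 1.35) and lower at day 10 (-2.08).

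**Figure D5:**
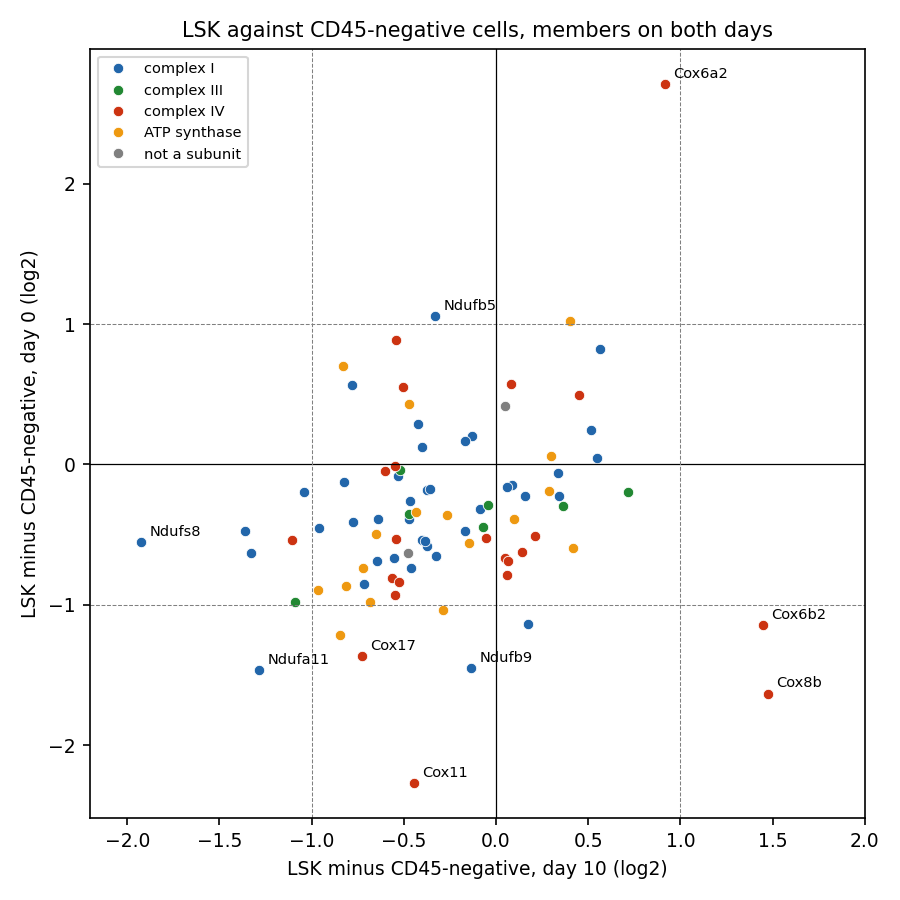
LSK minus CD45-negative at day 10 (x axis, log2) against the same at day 0 (y axis, log2), 1 point a gene, coloured by complex; dashed lines mark 2-fold. Most points lie at the lower left, below 0 on both axes, Ndufa11 is beyond 2-fold on both days, and Cox8b and Cox6b2 change sign between days.

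By complex at day 0, the medians of LSK minus CD45-negative were -0.29 for complex I, -0.30 for complex III, -0.67 for the general subunits of complex IV and -0.49 for the ATP synthase. All 7 genes of complex III were lower in LSK cells at day 0, from -0.98 (Uqcrfs1) to -0.04 (Uqcrb). At day 10 the medians were -0.39, -0.07, 0.05 and -0.43, in the same order. Under the alternatives other than the spike-in scaling, the day 0 median of complex III lay between -0.56 and -0.02. Its day 10 median lay between -0.44 and -0.01, so the size of both depends on the processing. The general subunits of complex IV went both ways at day 10, with 4 of 10 below 0 and a range from -0.56 to 0.21, and their median lay between -0.22 and 0.12 under the alternatives other than the spike-in scaling. The medians of complex I and of the ATP synthase were below 0 on both days.

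Ndufa11, an accessory subunit of complex I's membrane arm, was the 1 gene at least 2-fold lower in LSK cells on both days, with 1.70 (day 10) and 1.68 (day 0) in LSK cells, and 2.98 (day 10) and 3.15 (day 0) in CD45-negative cells; it was chosen after its values were seen. Both LSK arrays lay below both CD45-negative arrays, by 2.44-fold at day 10 and 2.76-fold at day 0. Ndufs8 had the largest difference at day 10, 3.8-fold lower in LSK cells, and -0.55 at day 0. Among the genes lower in LSK cells at day 0, the largest difference was that of Cox11, 4.82-fold, followed by Cox8b (-1.63), Ndufa11 and Ndufb9 (-1.45). Cox8b and Cox6b2 were lower in LSK cells at day 0 (-1.63 and -1.15) and higher at day 10 (1.47 and 1.45). Cox6a2 was higher in LSK cells on both days, 1.89-fold at day 10 and 6.54-fold at day 0. Cox6a1, saturated in CD45-negative cells, was at least 1.81-fold lower in LSK cells at day 0. Atp5b's 3 probes gave differences from -1.45 to -0.28 at day 10 and from -1.04 to -0.23 at day 0, all lower in LSK cells, while the 2 probes of Atp5a1 had opposite signs at day 0 (-0.90 and 0.12).

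Related genes outside the naming rule were counted from fixed lists. Complex II, whose 4 genes code for succinate dehydrogenase, had 0 genes 2-fold apart between days in either population, with medians of -0.11 in LSK cells and 0.28 in CD45-negative cells. Cytochrome c (Cycs) differed by -0.50 in LSK cells and 0.38 in CD45-negative cells. The 13 genes of the citric acid cycle had 0 and 1 genes 2-fold apart, Ogdh, a subunit of the oxoglutarate dehydrogenase, at -1.16 in CD45-negative cells. For carriers of ADP and phosphate and uncoupling proteins, 1 of 4 measured was 2-fold higher at day 10 in CD45-negative cells and 0 of 5 were 2-fold apart in LSK cells. Of all genes, 41.3% were 2-fold apart between days in CD45-negative cells, 24.1% being higher at day 10 and 17.2% lower. In LSK cells 4.2% of all genes were 2-fold apart.

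Assembly factors with other names were higher at day 10 in CD45-negative cells in 19 of 21 cases, where 57.6% of all genes lay above 0, with a median of 0.49 against 0.22 for all genes. At least 2-fold, 5 of the 21 were higher and 0 lower, where 24.1% and 17.2% of all genes were. The largest were Uqcc1, for complex III (1.47), Ecsit, for complex I (1.31), and Sdhaf1, for complex II (1.31). In LSK cells the median of 22 was 0.07, with 0 of them 2-fold apart, where 4.2% of all genes were. Regulators of mitochondrial gene expression and DNA had 4 of 14 at least 2-fold higher at day 10 in CD45-negative cells and 0 lower, where 24.1% of all genes were higher at that size, a share near that of the list. The 4 were Ppargc1b (1.64), a coactivator of nuclear respiratory genes, Esrra (1.57), the receptor it acts with, Polrmt (1.23), the mitochondrial RNA polymerase, and Polg (1.04), the DNA polymerase. In LSK cells 0 of 15 were 2-fold apart, where 4.2% of all genes were.

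A further 9 genes carry current respiratory names but older array names, and so lay outside the rule. Uqcr10, a small subunit of complex III, differed by -0.31 in CD45-negative cells and 0.29 in LSK cells, and the ATP synthase subunits Atp5md and Atp5mpl by -0.36 and -0.03 in CD45-negative cells. The complex I assembly factors Ndufaf5 and Ndufaf6 were at least 2-fold higher at day 10 in CD45-negative cells (1.44 and 1.13), where 24.1% of all genes were. Their LSK differences were 0.08 and 0.07, and these 2 were named after their values were seen. Ndufaf8, Cox14 and Cox20 differed by 0.78, 0.61 and -0.25 in CD45-negative cells. Ndufaf7 was not above background in CD45-negative cells at day 0 and has no difference between days there.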

How the data were processed

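Cy3-labelled RNA of 4 samples was hybridised to Agilent mouse 1-colour arrays, all on 1 slide read in 1 scan per the file headers. Slide and scan thus did not differ between the groups. Per the file headers, the authors extracted spots with Agilent Feature Extraction 10.5.1.1; the deposited intensity values are raw spot and background signals and a processed signal, background-subtracted and detrended. The deposited flags for detection, saturation and outliers are of another kind (unit: other) and carry no signal. The deposited series table holds log2 values; on each array, at least 99.977% of probes match the processed signal in log2 less a constant, to within 0.001.

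Outlier spots were removed, log2 processed signals averaged per probe (Python 3.11.15, pandas 2.3.3, numpy 2.4.6), and each array's 75th percentile over 61307 gene probes subtracted. Levels are on that log2 scale; differences subtract day 0 from day 10, or CD45-negative from LSK cells. Each gene took its probe with the highest mean; it was measured where well above background and unsaturated on both arrays. Against an array where the probe was not well above background, or was saturated, a bound uses the lowest signal called above background there, or the saturated value. With 1 array a group no test was possible, and the number of arrays limits precision. Symbols came from the spot files and were matched to RefSeq for 28136 of 40628 coding probes (69.3%) and 92 of the 93 genes, 5 of them since renamed (Atp5f1, Atp5s, Atp5sl, Cox4nb and Uqcr); 20679 noncoding probes were kept out of gene counts but entered the percentile. Of the member probes, 2 list another named gene (Ndufb4 and Ndufs5) and 22 an accession not matched. The design's build is mm9 per the file headers; promoter stretches are RefSeq's, on GRCm38.p6. The steps were tested on simulated arrays with known differences.

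Levels per array are given for core subunits, general and tissue isoforms of complex IV, the 3 largest CD45-negative and the 1 largest LSK difference per complex, members 2-fold apart in LSK cells, members with a bound and members whose probes differ by over 1 log2 unit between days. The values of 1 core subunit of complex I are not reported here, though it is in the counts. The members and lists were chosen with earlier results of these data known. Cox7a2l, Cox16, Cox17, Ndufa11, Atp5g1, Atp5g2, Ndufaf5 and Ndufaf6 were named after their values were seen. The alternatives were normexp (offset 50, limma 3.58.1 in R 4.3.3), quantile and cyclic loess normalization, other shifts, the deposited table, other detection filters, the mean of a gene's probes, subunits alone and 1.5-fold; keeping saturated probes and leaving out probes with further accessions were added after seeing the data. No deposited column of per-sample values was set aside.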

Additional observations from a re-analysis of the deposited data

How the results depend on the processing

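The median difference of the members in CD45-negative cells, day 10 minus day 0, was 0.24 with normexp, 0.11 with quantile normalization, 0.12 with cyclic loess, -0.39 with the housekeeping shift and 3.23 with the spike-in shift, against -0.02. With the same scalings LSK minus CD45-negative at day 0 was -0.18 (normexp), -0.21 (quantile), -0.23 (cyclic loess), -0.67 (housekeeping) and 1.35 (spike-in), and -0.60 with the median shift, against -0.40. At day 10 it was -0.56 with the median shift and -2.08 with the spike-in shift, against -0.39, and the LSK comparison of days was -0.18 with the spike-in shift, against 0.01. Without the spike-in shift these medians ranged from -0.39 to 0.24, -0.67 to -0.18, -0.56 to -0.33 and -0.10 to 0.06.

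Counts at 2-fold in CD45-negative cells were 7 higher and 3 lower with normexp, 1 and 10 with the housekeeping shift, 86 and 0 with the spike-in shift, 1 and 3 over subunits alone, and 15 and 13 at 1.5-fold, against 3 and 5. In LSK cells they were 1 and 2 with no detection filter and 2 and 2 at 1.5-fold, with 2 lower where 1 of the 2 arrays sufficed, against 0 and 1. For LSK minus CD45-negative at day 0 they were 1 and 17 with the median shift, 1 and 20 with the housekeeping shift, 70 and 0 with the spike-in shift, 6 and 29 at 1.5-fold, and 1 higher without probes listing further accessions, against 3 and 9. At day 10 they were 1 higher with normexp, 0 and 84 with the spike-in shift and 4 and 23 at 1.5-fold, against 2 and 7.

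Among the genes chosen by rule for per-array levels, 12 values at least 2-fold apart changed sign with the spike-in shift. In CD45-negative cells these were Atp5s (2.24), Cox11 (1.40), Cox6b2 (0.65), Cox8b (0.30) and Ndufb9 (2.06). In LSK minus CD45-negative at day 0 they were Atp5b (0.71), Cox6b2 (0.60), Cox8b (0.12), Ndufb9 (0.30) and Ndufv1 (0.61). At day 10 they were Cox6b2 (-0.25) and Cox8b (-0.22). That shift moves all genes by 3.25, 1.75 and -1.69 in these comparisons, and the median and housekeeping shifts move all genes by at most 0.37. Of the same genes, 247 of 271 values under the other alternatives stayed past 2-fold and 0 changed sign. Other genes named in the text were not in these counts. Among them, Ndufa11, Cox17 and Atp5h differed by -1.46, -1.37 and -1.22 in LSK minus CD45-negative at day 0. These are smaller in size than the spike-in shift of 1.75, so they also change sign under it. Of all genes past 2-fold in CD45-negative cells, 58.3% were higher at day 10, against 37.5% with the housekeeping shift and 99.0% with the spike-in shift; in LSK cells 35.1%, against 23.8% and 16.1%. For LSK minus CD45-negative the share was 55.4% at day 0, against 45.2% (median shift), 41.5% (housekeeping) and 95.2% (spike-in), and 46.7% at day 10, against 33.9% (median shift) and 0.928% (spike-in). The causes were not tested. No paired analysis was possible because each group has 1 array. Depth is not at issue on arrays; signal over background limits Cox10, Cox8b and the members below background.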
